A study of Mus musculus with 24 samples.

Results

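The genes described here were 10 imprinted growth regulators, on arrays where 22180 genes had a probe set annotated to them alone. They were picked by name, with earlier results of these data known. The textbook places *H19*, *Meg3*, *Rian*, *Cdkn1c* and *Grb10* among maternally expressed genes, and *Dlk1*, *Peg3*, *Plagl1*, *Ndn* and *Mest* among paternally expressed genes. Each gene was read from the probe set annotated to it alone, and from the one with the highest mean where there was more than 1. That left 9 of the 10 genes, since *H19* was annotated only on a probe set shared with the microRNA gene *Mir675* and was given no value.

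Tumors came from *G-Smo* (*hGFAP-Cre/SmoM2*) mice, in which a human *GFAP* promoter drives Cre in neural stem cells across the brain, and from *M-Smo* (*Math1-Cre/SmoM2*) mice, in which Cre is driven in committed granule neuron progenitors. Mice of both genotypes carried the same *SmoM2* allele, which encodes a constantly active Smoothened protein and turns on SHH signaling. All came from lines crossed for several generations into a C57BL/6 background, and their medulloblastomas were taken at P15. The comparison rests on 6 untreated *G-Smo* tumors and 6 untreated *M-Smo* tumors, each measured on 1 Affymetrix Mouse Gene ST array. Another 6 tumors of each genotype were taken 2 h after 10 Gy of xRT, but their arrays had values for 1019 probe sets only, none of them of a member, and were not used here. Brain tissue without *SmoM2* was not analysed here, so no level could be set against normal cerebellum.

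Imprinted genes are read mainly from 1 parental chromosome, because a control region carries DNA methylation from the egg or the sperm alone. Many maternally expressed genes restrain growth and many paternally expressed genes promote it, although members of both classes depart from this. The class can also change with the cell. *Grb10* is read from the maternal allele in most mouse tissues and from the paternal allele in neurons, and *Dlk1* can be read from both alleles in postnatal neural stem cells and their niche. The arrays did not separate alleles, so the classes below are labels and not measurements.

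Values are log2 intensities, and array medians lay between 6.39 and 6.42 in *G-Smo* tumors and between 6.38 and 6.41 in *M-Smo* tumors. The 10 measured genes of the granule neuron lineage list, among them *Gli1*, *Atoh1* and *Mycn*, averaged 11.43 to 11.51 across *G-Smo* tumors, against 11.34 to 11.42 across *M-Smo* tumors. These means did not overlap, but the genes were mixed, with 6 differences above 0 and 4 below (−0.07 to 0.21). None of the 10 passed the test, and 3 were higher at an unadjusted p under 0.05, against 18.9% of all probe sets in either direction. *M-Smo* replicate 1 stood apart in several genes below, with the highest myelin mean of all tumors (9.57). The labels give no sex for each mouse, and *Xist*, which is transcribed from an inactive X chromosome, lay between 12.51 and 12.79 in 5 *G-Smo* and 2 *M-Smo* tumors and between 5.82 and 6.10 in the other 5. The *M-Smo* tumors with high *Xist* were replicates 1 and 6, and the *G-Smo* tumor with low *Xist* was replicate 6.

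The members differed in direction between genotypes. *Grb10* was higher in *G-Smo* tumors by 0.77 on the log2 scale, or 1.71-fold, and *Ndn* was lower by 1.18-fold. The other 7 members did not pass the test, an adjusted p under 0.05 in limma over all 41345 probe sets. Over all probe sets, 2.56% were called in either direction, 1.27% as higher and 1.29% as lower in *G-Smo* tumors, and 3.05% with 1 probe set per gene. The median difference of the 9 members was −0.21, against 0.00 for all probe sets, with 4 members above 0 and 5 below. At an unadjusted p under 0.05 there were 1 member higher and 5 lower, against 18.9% of all probe sets in either direction. The groups did not overlap for 2 of the 9 members, against 3.46% of all probe sets. The members were chosen with earlier results of these data known, so these shares are descriptions and not a test of imprinted genes.

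**Figure D1:**
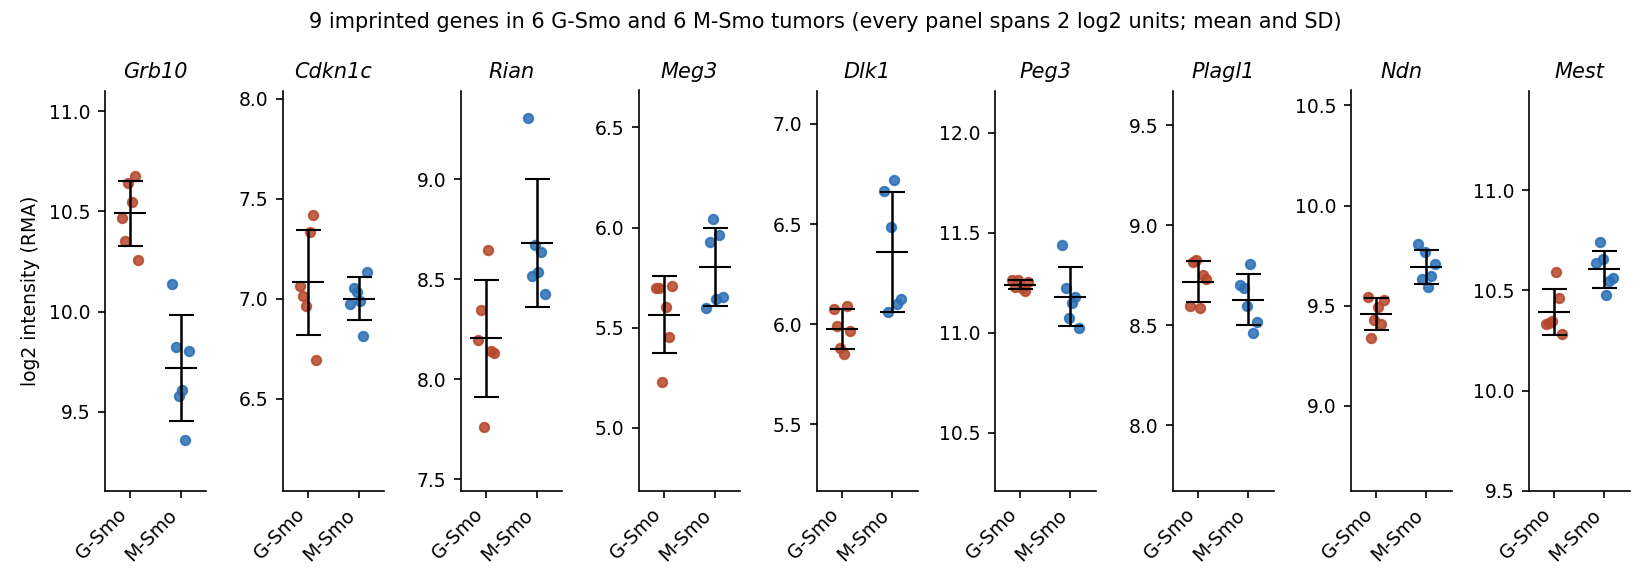
Each point is 1 tumor and the y axis is log2 intensity after RMA, with *G-Smo* at the left and *M-Smo* at the right of each panel. Bars give the mean and SD (n = 6 each), every panel spans the same 2 log2 units, and heights are not comparable between genes because their probes differ. The groups are apart for *Grb10* (10.26 to 10.68 in *G-Smo*, 9.36 to 10.14 in *M-Smo*) and for *Ndn* (9.34 to 9.54 in *G-Smo*, 9.59 to 9.81 in *M-Smo*).

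*Grb10* (probe set 17260668) encodes an adaptor protein that binds the activated insulin and IGF receptors and restrains their signaling. Its values ran from 10.26 to 10.68 with a median of 10.51 in *G-Smo* tumors and from 9.36 to 10.14 with a median of 9.70 in *M-Smo* tumors. The groups did not overlap. The nearest *M-Smo* tumor was replicate 1 at 10.14, and the nearest *G-Smo* tumor was replicate 6 at 10.26. By *Xist*, each of these tumors was like most tumors of the other genotype. *M-Smo* replicate 6, which also had high *Xist*, was at 9.80, within the range of the other *M-Smo* tumors. The part of sex in this margin was not tested beyond the sex score below. The means were 10.49 ± 0.16 in *G-Smo* tumors and 9.72 ± 0.27 in *M-Smo* tumors (SD, n = 6 each), a difference of 0.77 ± 0.12 (SE) with a 95% interval of 0.51 to 1.03. The adjusted p in limma was 0.00874, and the exact two-sided permutation p was 0.00216, the smallest that 6 tumors against 6 can give. Leaving out any 1 tumor gave differences of 0.70 to 0.86, all of them called. With a sex score (Y-linked genes minus *Xist*) in the model it was 0.59 (adjusted p = 0.0304).

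The RefSeq table lists 2 starts for *Grb10*. Both windows, 250 bases before to 50 after the start on build GRCm38.p6, are shown because this gene carries the largest difference among the members. Capitals mark the match to TGCCGC, searched on both strands (GCGGCA on the other), the core motif bound by ZFP57, which keeps imprints methylated in the early embryo.
Grb10, chr11:12037371-12037670, minus strand: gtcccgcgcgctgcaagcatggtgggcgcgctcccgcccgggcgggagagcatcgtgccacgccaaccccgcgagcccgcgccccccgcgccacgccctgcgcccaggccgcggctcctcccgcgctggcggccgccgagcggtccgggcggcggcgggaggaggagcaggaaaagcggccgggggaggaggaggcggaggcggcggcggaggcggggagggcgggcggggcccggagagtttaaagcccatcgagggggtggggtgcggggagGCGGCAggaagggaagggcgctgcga
Grb10, chr11:12027922-12028221, minus strand: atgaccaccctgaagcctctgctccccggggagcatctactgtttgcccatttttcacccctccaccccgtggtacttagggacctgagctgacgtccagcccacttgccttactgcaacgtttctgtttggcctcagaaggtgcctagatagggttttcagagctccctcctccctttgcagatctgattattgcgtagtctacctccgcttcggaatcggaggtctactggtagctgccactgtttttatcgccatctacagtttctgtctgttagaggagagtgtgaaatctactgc
The first window held 45 CpG dinucleotides, more than 98.1% of the 32851 windows in the table, and 1 match at base 275. The second held 9 CpG and no match. Of the 10 members 8 had a window in the table, 12 windows in all. The motif was in 5 windows of 4 genes (*Grb10*, *Meg3*, *Plagl1* and *Mest*), and in 11.6% of all windows. The windows of *Mest* that held it overlap almost in full and share the same matches, so they are 1 stretch of sequence counted more than once. A match is a description of the letters only, and the probe set does not say which start a transcript came from.

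*Ndn* (probe set 17478789) encodes necdin, a MAGE family protein abundant in postmitotic neurons. Its values ran from 9.34 to 9.54 with a median of 9.46 in *G-Smo* tumors and from 9.59 to 9.81 with a median of 9.68 in *M-Smo* tumors. The groups did not overlap, but the nearest tumors were 9.54 in *G-Smo* replicate 1 and 9.59 in *M-Smo* replicate 4. The means were 9.46 ± 0.079 in *G-Smo* tumors and 9.69 ± 0.083 in *M-Smo* tumors (SD, n = 6 each), a difference of −0.24 ± 0.057 (SE). The adjusted p was 0.0497 and the exact permutation p 0.00216. This call sat at the threshold. It was lost when any 1 of the 12 tumors was left out (adjusted p from 0.0524 to 0.107, difference from −0.26 to −0.21) and with the sex score in the model (−0.25, adjusted p = 0.109).

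*Dlk1* and *Mest* were the other 2 paternally expressed members with a negative difference, and neither passed. *Dlk1* (probe set 17278647) encodes a membrane protein related to Notch ligands that holds progenitors undifferentiated. Its values were 6.08, 5.99, 5.88, 5.85, 6.09 and 5.96 in *G-Smo* replicates 1 to 6, and 6.66, 6.06, 6.48, 6.72, 6.10 and 6.13 in *M-Smo* replicates 1 to 6. The *M-Smo* tumors split into 3 at 6.48 or higher and 3 close to the *G-Smo* values. The difference was −0.38 ± 0.12 (SE, adjusted p = 0.114, exact permutation p = 0.00866), and 4 of 6 *G-Smo* tumors lay below all *M-Smo* tumors. *Mest* (probe set 17456934) encodes an enzyme-like protein of the α/β-hydrolase family, first named for its expression in mesoderm. It averaged 10.39 ± 0.11 in *G-Smo* tumors and 10.61 ± 0.094 in *M-Smo* tumors (SD, n = 6 each), a difference of −0.21 ± 0.066 (SE, adjusted p = 0.110, exact permutation p = 0.0130). *G-Smo* replicate 4, at 10.59, was the 1 *G-Smo* tumor within the *M-Smo* range of 10.48 to 10.74.

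*Peg3* and *Plagl1*, which both encode zinc finger proteins linked to growth arrest and cell death, showed the smallest differences of the paternally expressed members. *Peg3* (probe set 17486110) averaged 11.24 ± 0.023 in *G-Smo* tumors and 11.18 ± 0.15 in *M-Smo* tumors (SD, n = 6 each), a difference of 0.06 with a 95% interval of −0.08 to 0.20. Its 6 *G-Smo* values lay between 11.21 and 11.26, whereas the *M-Smo* values ran from 11.02 to 11.44. Whether this spread differed between genotypes was not tested. *Plagl1* (probe set 17231694) averaged 8.72 ± 0.10 in *G-Smo* tumors and 8.63 ± 0.13 in *M-Smo* tumors, a difference of 0.09 with a 95% interval of −0.06 to 0.25. A second *Plagl1* probe set averaged 2.49 in *G-Smo* tumors and 2.60 in *M-Smo* tumors, and its number places it among probe sets of genes on the opposite strand.

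Among the maternally expressed members, *Cdkn1c* and both noncoding RNAs of the *Dlk1*–*Dio3* domain did not pass. *Cdkn1c* (probe set 17498245), an inhibitor of cyclin-dependent kinases that promotes cell cycle exit, averaged 7.08 ± 0.26 in *G-Smo* tumors and 7.00 ± 0.11 in *M-Smo* tumors (SD, n = 6 each), and its *G-Smo* values of 6.69 to 7.42 spanned the *M-Smo* values of 6.81 to 7.14. The difference was 0.08 with a 95% interval of −0.16 to 0.32, and it was −0.04 with the sex score in the model. *Rian* (probe set 17278715), a long noncoding RNA that hosts C/D box snoRNAs, was 8.20, 8.35, 7.76, 8.65, 8.14 and 8.13 in *G-Smo* replicates 1 to 6, and 9.31, 8.52, 8.67, 8.53, 8.64 and 8.43 in *M-Smo* replicates 1 to 6. In 5 of 6 *G-Smo* tumors it was below every *M-Smo* tumor. Its difference of −0.48 ± 0.16 (SE) was the lowest of the members, with an adjusted p of 0.135 and an exact permutation p of 0.0152, and it was −0.35 without *M-Smo* replicate 1. *Meg3* (probe set 17283955), a long noncoding RNA linked to growth arrest, averaged 5.57 ± 0.19 in *G-Smo* tumors and 5.80 ± 0.19 in *M-Smo* tumors, a difference of −0.24 ± 0.11 (SE, adjusted p = 0.248). This probe set lies, by its number, among probe sets of genes on the minus strand (9 of the 10 nearest), while RefSeq puts *Meg3* on the plus strand, so which transcript it reads is not settled here. *Meg3* was also annotated on 2 probe sets shared with microRNA genes, which were not used.

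By parental class, the maternally expressed members had a median difference of −0.08 (1 higher, 0 lower, 3 not passed) and the paternally expressed members −0.21 (0 higher, 1 lower, 4 not passed). The maternal median was 0.08 with the filter at percentile 40, which drops the *Meg3* probe set. Its sign thus rests on that probe set, whose transcript is not settled. The mean of the 5 paternally expressed members lay between 9.14 and 9.18 in *G-Smo* tumors and between 9.19 and 9.45 in *M-Smo* tumors, apart by less than 0.01. The mean of the 4 maternally expressed members overlapped, at 7.65 to 8.03 across *G-Smo* tumors, against 7.69 to 8.00 across *M-Smo* tumors. Within the maternal class *Grb10* and *Rian* lay at opposite ends, at 0.77 and −0.48.

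Among 40 other imprinted genes 33 could be measured, and 3 of these passed, all higher in *G-Smo* tumors and all paternally expressed. Over all probe sets 1.27% were called as higher. *Airn*, a noncoding RNA that silences *Igf2r* in cis, averaged 7.16 ± 0.088 in *G-Smo* tumors and 6.80 ± 0.083 in *M-Smo* tumors (SD, n = 6 each), a difference of 0.36 (adjusted p = 0.0115). *Kcnq1ot1*, the noncoding RNA that silences *Cdkn1c* on the paternal chromosome, averaged 9.81 ± 0.16 in *G-Smo* tumors and 9.47 ± 0.064 in *M-Smo* tumors, a difference of 0.34 (adjusted p = 0.0328). The groups did not overlap for either RNA. *Zdbf2*, a zinc finger gene, averaged 9.97 ± 0.13 in *G-Smo* tumors and 9.65 ± 0.12 in *M-Smo* tumors (difference 0.33, adjusted p = 0.0421), and *M-Smo* replicate 1, at 9.88, lay within the *G-Smo* range. The call of *Airn* was kept with any tumor left out, whereas that of *Kcnq1ot1* was kept only without *G-Smo* replicate 1 or *M-Smo* replicate 2, and that of *Zdbf2* only without replicate 1 of either genotype. None of these 3 calls was kept with the sex score in the model (adjusted p = 0.0501 for *Airn*, 0.0571 for *Kcnq1ot1* and 0.159 for *Zdbf2*).

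The median of the 21 paternally expressed genes of this list was −0.01, and that of the 12 maternally expressed genes was 0.00. No maternally expressed gene passed in limma or in the methods' test (the test named in the study's methods, run on each probe set alone with no sharing of variance). Of the 12, 1 had an unadjusted p under 0.05, against 18.9% of all probe sets in either direction. *Igf2*, the paternally expressed growth factor, averaged 9.41 ± 0.25 in *G-Smo* tumors and 9.20 ± 0.15 in *M-Smo* tumors (difference 0.21, adjusted p = 0.350). *Igf2os*, annotated on the strand opposite to *Igf2*, was not on that list and is given as a neighbor of *H19*. It averaged 6.03 ± 0.26 in *G-Smo* tumors and 5.56 ± 0.049 in *M-Smo* tumors, with no overlap and an adjusted p of 0.0344. Its call was kept only without *G-Smo* replicate 1 or 6, and it was lost with the sex score (adjusted p = 0.138) and in the methods' test. *Magel2*, a relative of *Ndn* beside it on the chromosome, averaged 5.83 ± 0.13 in *G-Smo* tumors and 5.77 ± 0.23 in *M-Smo* tumors (adjusted p = 0.796), and *Mirg* was annotated on shared probe sets only.

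**Figure D2:**
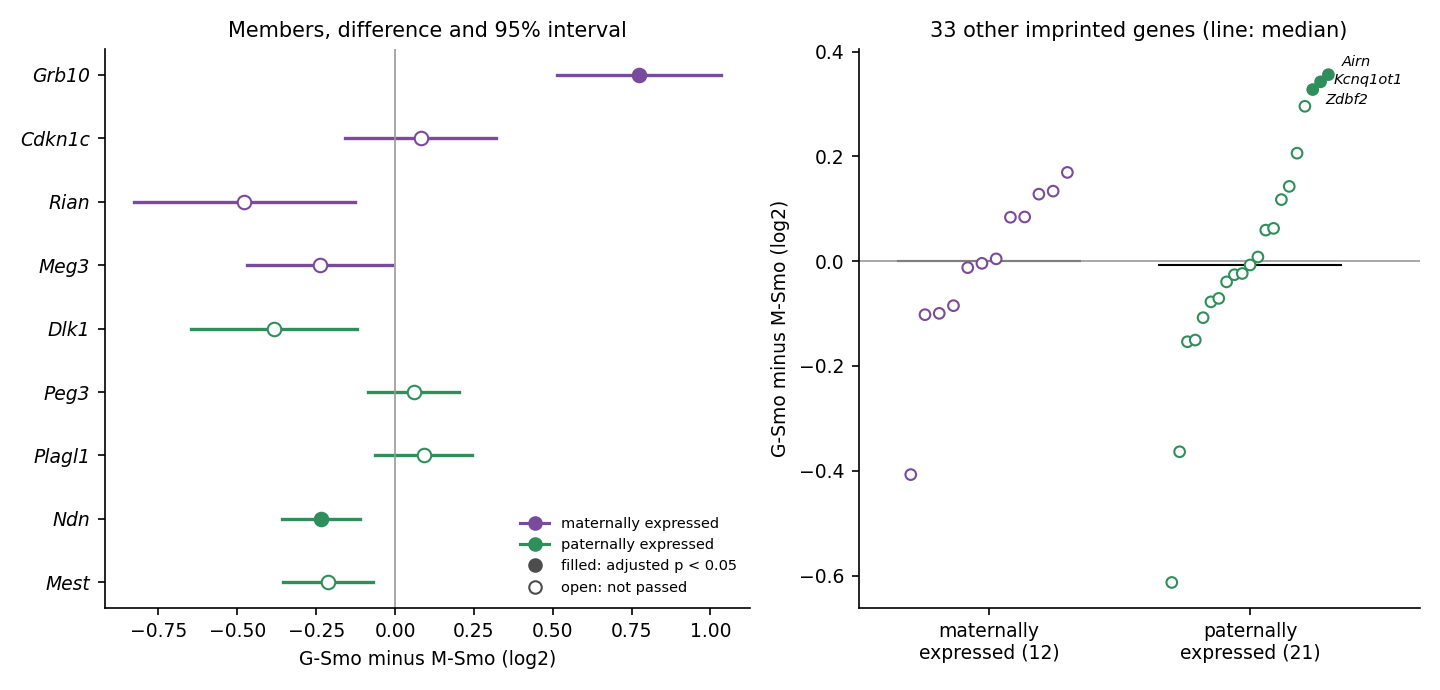
The left panel gives each member's difference, *G-Smo* minus *M-Smo* in log2 units, with its 95% interval, and the right panel gives the differences of 33 other imprinted genes in order of size within each parental class. Filled points passed the test. *Grb10* (0.77) and *Ndn* (−0.24) are the filled members, and *Airn*, *Kcnq1ot1* and *Zdbf2* (0.33 to 0.36) are the filled genes on the right.

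The *Dlk1*–*Dio3* domain holds *Dlk1*, *Meg3* and *Rian* together with a long array of maternally expressed microRNA and snoRNA genes. RefSeq places 100 other genes in it, of which 52 could be measured. Of the 52, 45 were lower in mean in *G-Smo* tumors, against 20266 of all 41345 probe sets. The median difference of the 52 was −0.18, against 0.00 for all probe sets. These genes share a domain and the same arrays, so they are not independent, and the counts are descriptions. In the test 3 of the 52 passed, all microRNA genes and all lower, against 1.29% of all probe sets called as lower. *Mir667* ran from 6.76 to 7.08 with a median of 6.95 in *G-Smo* tumors, and from 7.30 to 7.74 with a median of 7.48 in *M-Smo* tumors. It averaged 6.94 ± 0.12 in *G-Smo* tumors and 7.50 ± 0.18 in *M-Smo* tumors (SD, n = 6 each), a difference of −0.56 (adjusted p = 0.00874). *Mir654* averaged 6.06 ± 0.15 in *G-Smo* tumors and 6.58 ± 0.14 in *M-Smo* tumors, a difference of −0.52 (adjusted p = 0.00928). *Mir539* averaged 5.25 ± 0.14 in *G-Smo* tumors and 5.72 ± 0.22 in *M-Smo* tumors, a difference of −0.47 (adjusted p = 0.0328). For each of the 3 the groups did not overlap. The calls of *Mir667* and *Mir654* were kept with any tumor left out, and that of *Mir539* was lost without 8 of the 12, being kept without *G-Smo* replicate 4 or *M-Smo* replicate 1, 4 or 6. All 3 calls were kept with the sex score in the model.

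The mature products of these 3 genes, from RefSeq on build GRCm38.p6, are printed 5′ to 3′ because they carry the calls of the domain, with the seed (bases 2 to 8) in capitals.
miR-667-5p, chr12:109720020-109720044, plus strand: cGGUGCUGguggagcagugagcacg
miR-667-3p, chr12:109720061-109720083, plus strand: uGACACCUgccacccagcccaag
miR-654-5p, chr12:109723235-109723256, plus strand: uGGUAAGCugcagaacaugugu
miR-654-3p, chr12:109723270-109723291, plus strand: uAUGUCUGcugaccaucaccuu
miR-539-5p, chr12:109728136-109728157, plus strand: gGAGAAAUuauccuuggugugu
No seed was shared among these 5, and none of them was shared with another gene of the table. All 43 measured microRNA genes of the domain matched RefSeq, with 81 mature sequences and 73 seeds, of which 8 were shared by more than 1 gene. A probe set for a microRNA gene takes in whatever precursor RNA entered the labeling, so the levels of the mature microRNAs were not measured.

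Differences below 0 ran through most of the domain. Among the 43 microRNA genes 37 were lower in mean (median −0.19), and so were 6 of 6 snoRNA genes (median −0.24). No snoRNA gene passed in limma or the methods' test. Of the 6, 1 had an unadjusted p under 0.05, against 18.9% of all probe sets in either direction. *AF357425*, a snoRNA gene, averaged 9.03 ± 0.32 in *G-Smo* tumors and 9.67 ± 0.37 in *M-Smo* tumors, with no overlap (difference −0.64, adjusted p = 0.0864). *Dio3*, a paternally expressed deiodinase gene at the far end, averaged 4.65 ± 0.23 in *G-Smo* tumors and 4.67 ± 0.24 in *M-Smo* tumors. The genes of the domain are not independent, and part of this shift lay in a single tumor. Without *M-Smo* replicate 1 the median over the 52 genes was −0.09 with 38 lower, and *Mir667*, *Mir654* and *Mir539* were still called. The median was −0.30 with the sex score in the model (43 of 52 lower), and also −0.30 over the 27 genes left when probe sets under percentile 40 of the means were dropped (27 of 27 lower). *Mir539*, at percentile 35.6 of all probe set means, is among the genes dropped.

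**Figure D3:**
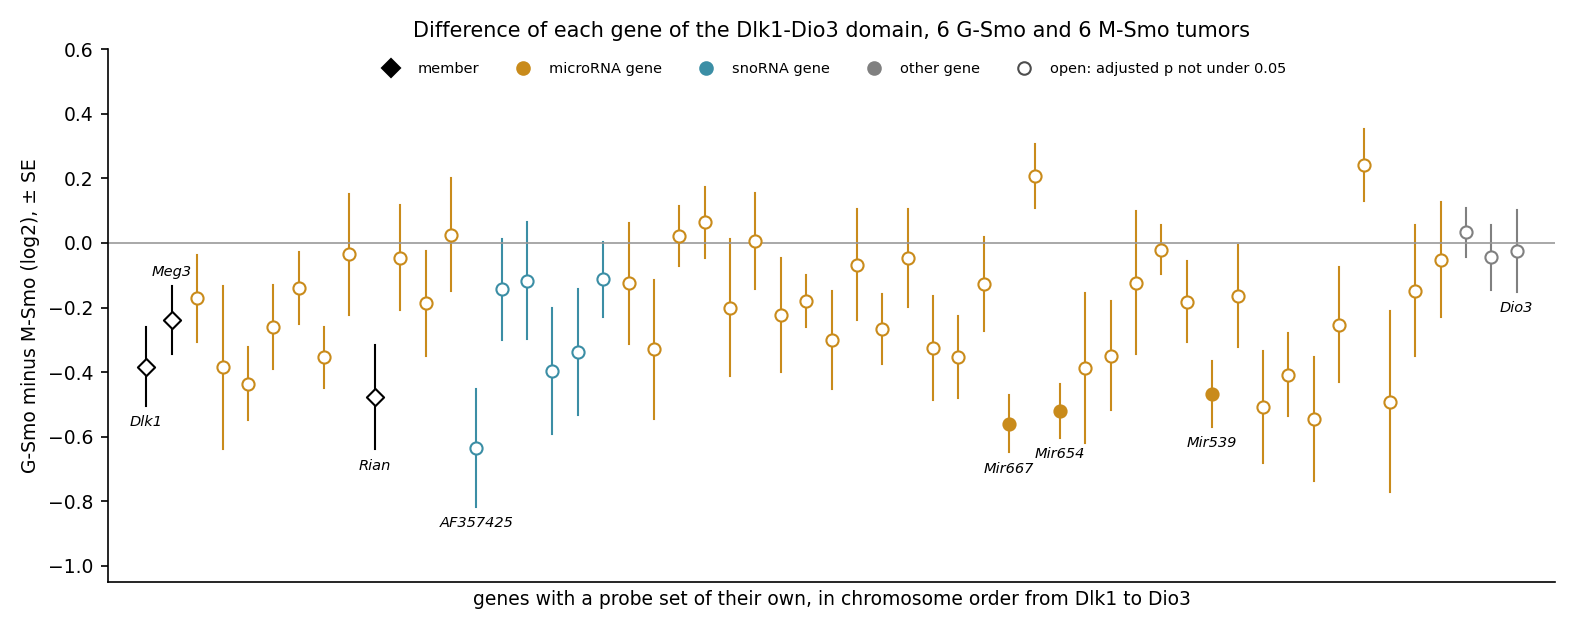
Points give the difference of each measured gene of the domain, *G-Smo* minus *M-Smo* in log2 units with its SE, in the order of the genes along the chromosome. Filled points passed the test, and diamonds are *Dlk1*, *Meg3* and *Rian*. Most points lie below 0, the 3 filled ones are *Mir667*, *Mir654* and *Mir539*, and the 3 at the right end, *Dio3* among them, lie near 0.

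Across tumors *Rian* varied with the small RNA genes of its domain. The correlation of deviations from the genotype means over 12 tumors had a median of 0.66 with the 43 microRNA genes and 0.88 with the 6 snoRNA genes, against −0.05 with all probe sets. These are descriptions, since the snoRNA genes lie within *Rian* and all points share an array. *G-Smo* replicate 3 was lowest and *M-Smo* replicate 1 highest for *Rian* and for both means. Without both tumors the medians were 0.28 and 0.44. With the mean of each list in place of its single genes, *Rian* had r = 0.95 for the microRNA mean and 0.92 for the snoRNA mean, and 0.84 and 0.62 without both tumors. For *Dlk1* the medians over genes were 0.25 and 0.28, and −0.11 and −0.32 without both tumors. For the probe set of *Meg3* they were −0.04 and 0.08 over all 12 tumors, 0.35 and 0.47 without *M-Smo* replicate 1, and 0.05 and 0.11 without both tumors.

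**Figure D4:**
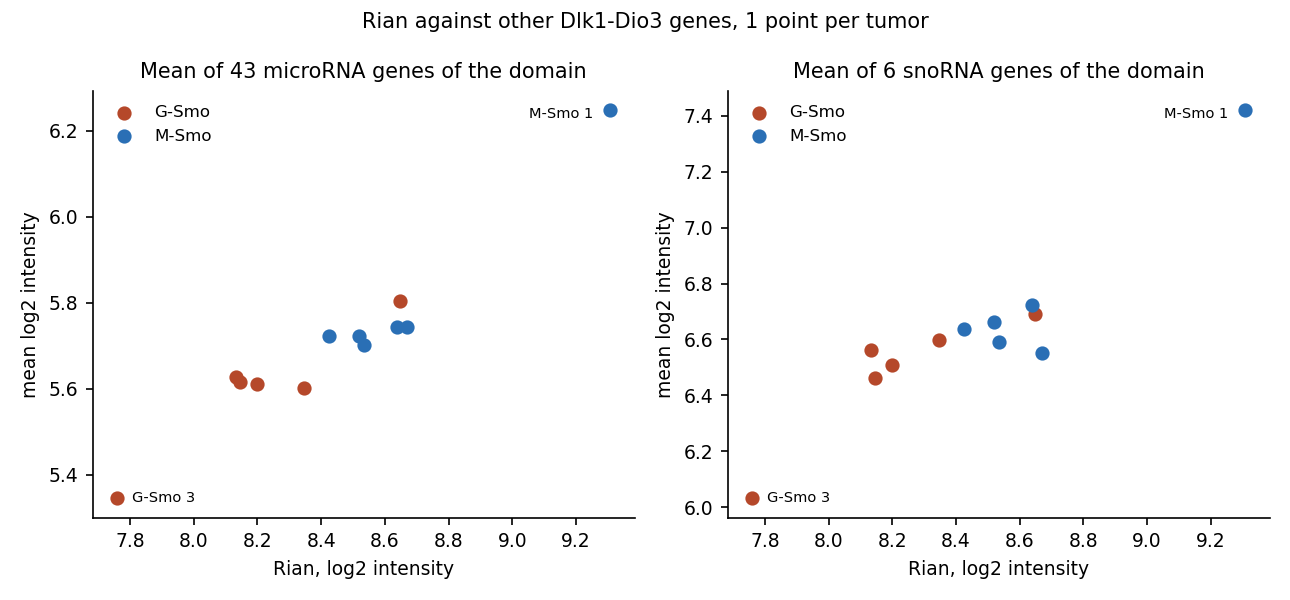
Each point is 1 tumor, with *Rian* on the x axis and the mean of 43 microRNA genes (left) or of 6 snoRNA genes (right) on the y axis, all in log2 intensity. *G-Smo* replicate 3 and *M-Smo* replicate 1 form the 2 ends in both panels, and the other 10 tumors lie between 8.13 and 8.67 in *Rian*.

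The genes beside the other members gave few calls. The share called over all probe sets was 2.56% in either direction, and 18.9% had an unadjusted p under 0.05. In the domain from *H19* to *Phlda2* 2 of 16 measured genes passed, *Kcnq1ot1* and *Igf2os*, both described above. None of 3 genes from *Zim1* to *Usp29* around *Peg3* and none of 21 genes from *Ube3a* to *Mkrn3* around *Ndn* passed in limma or in the methods' test, with 2 and 1 at an unadjusted p under 0.05. Around *Peg3* the differences were 0.53 for *Mir3099* (adjusted p = 0.248), 0.17 for *Zim1* (adjusted p = 0.239) and 0.01 for *Usp29*. Around *Ndn* the largest was that of *A230006K03Rik*, a long noncoding RNA gene, which averaged 6.21 ± 0.11 in *G-Smo* tumors and 6.70 ± 0.37 in *M-Smo* tumors (SD, n = 6 each). Its groups did not overlap (difference −0.49, adjusted p = 0.0973). The next were *Mir344d-3* (0.26, adjusted p = 0.578) and *Ipw* (−0.24, adjusted p = 0.350). No call was made either for the 6 nearest genes of *Plagl1*, of *Mest* and of *Grb10*, with 2, 1 and 2 at an unadjusted p under 0.05. Beside *Plagl1* the largest differences were those of *Phactr2* (−0.26, adjusted p = 0.124), *Zc2hc1b* (−0.17) and *Sf3b5* (0.12). Beside *Mest* they were those of *Mir335* (0.22, adjusted p = 0.309), *Copg2* and *Cpa5* (0.12), and beside *Grb10* those of *1700046C09Rik* (−0.23, adjusted p = 0.238), *Fignl1* (0.21) and *1700042O10Rik* (−0.19). *Ddc*, which neighbors *Grb10* and is imprinted with it in the mouse heart, averaged 5.89 in *G-Smo* tumors and 6.07 in *M-Smo* tumors (difference −0.18, adjusted p = 0.188), opposite in sign to *Grb10*. *Copg2*, which overlaps the end of the *Mest* gene, averaged 10.21 in *G-Smo* tumors and 10.37 in *M-Smo* tumors (difference −0.16, adjusted p = 0.179).

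Genes encoding proteins that set or keep imprints did not pass the test. None of 11 such genes passed in limma or in the methods' test. Over all probe sets 18.9% had an unadjusted p under 0.05 in either direction, and so did 3 of the 11, all higher. These were *Setdb1*, a histone methyltransferase (difference 0.18, adjusted p = 0.110), *Dnmt3a*, a DNA methyltransferase (0.11, adjusted p = 0.234), and *Trim28*, the partner of ZFP57 (0.10, adjusted p = 0.245). None of 9 relatives of the members passed in either test, with 2 lower at an unadjusted p under 0.05. Those 2 were *Grb7* (−0.18, adjusted p = 0.168) and *Grb14* (−0.18, adjusted p = 0.256), adaptors of the same family as *Grb10*, and both differences were opposite in sign to that of *Grb10*. *Cdkn1a*, a relative of *Cdkn1c*, had a difference of −0.16 (adjusted p = 0.316).

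The pairs of members gave no call. Among the 36 pairs of 9 members none passed after Benjamini-Hochberg adjustment for r or for rho, by an exact permutation test of tumors within genotype, and 3 had an unadjusted p under 0.05 for r and 2 for rho. Values were taken as deviations from the genotype mean over 12 tumors. The median r was 0.17 for the 16 pairs within a parental class and 0.17 for the 20 pairs between classes. The lowest r was that of *Meg3* with *Grb10* (r = −0.67, permutation p = 0.0221, adjusted 0.514, and rho = −0.78, permutation p = 0.00631, adjusted 0.227). It was −0.80 within *G-Smo* tumors, −0.62 within *M-Smo* tumors and −0.53 without the 2 tumors farthest from the median of *Meg3*. Which transcript the *Meg3* probe set reads is not settled, as given above. The highest r was that of *Cdkn1c* with *Mest* (r = 0.67, permutation p = 0.0297, adjusted 0.514, and rho = 0.69, permutation p = 0.0223, adjusted 0.401). It was 0.84 within *G-Smo* tumors, 0.29 within *M-Smo* tumors and 0.66 without the 2 tumors farthest from the median of *Cdkn1c*. *Cdkn1c* with *Grb10* had r = 0.51 (permutation p = 0.0428, adjusted 0.514) and rho = 0.50 (permutation p = 0.109, adjusted 0.656), and r was 0.31 without 2 tumors. *Rian* with *Peg3* had r = 0.57, and 0.03 without 2 tumors. The r of *Grb10*, *Cdkn1c* and *Meg3* with sex-linked genes is given below, and its part in these pairs was not tested singly.

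**Figure D5:**
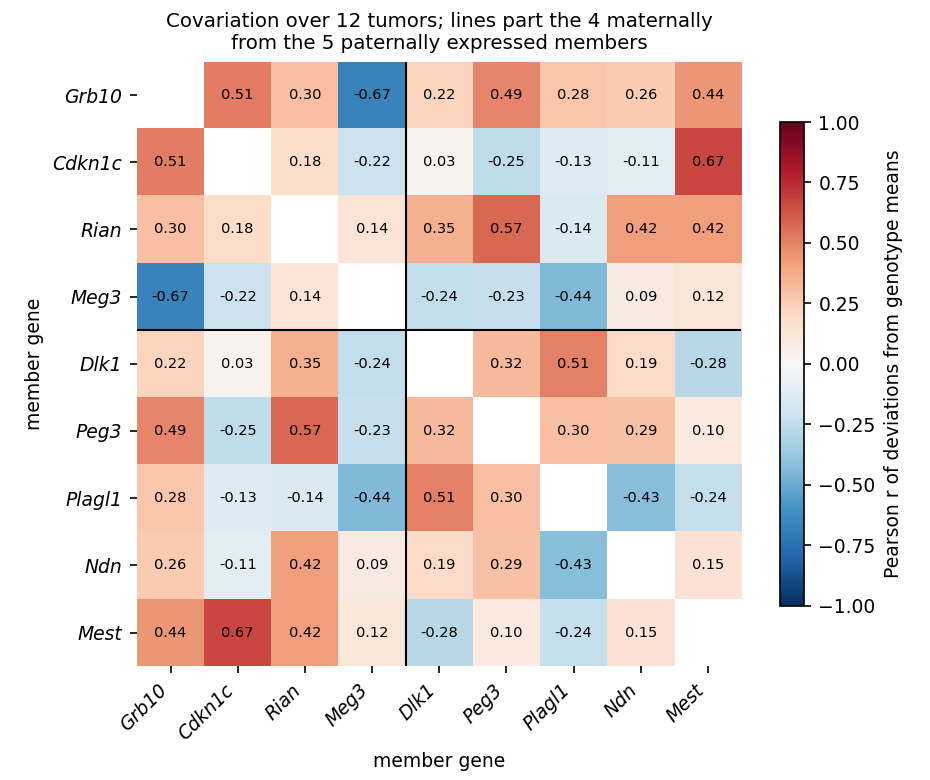
Cells give Pearson's r of the deviations from the genotype means over 12 tumors for each pair of the 9 members, from blue (negative) to red (positive). Black lines part the 4 maternally from the 5 paternally expressed members. The 2 strongest cells are those of the *Meg3* probe set with *Grb10* (−0.67) and of *Cdkn1c* with *Mest* (0.67). The median r was 0.17 both within and between classes.

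The 3 genes whose deviations were most like a member's were picked by r among 12777 genes over the 12 tumors, so high values follow from the choice. *Rian* had the closest partners, *Ccdc92* (r = 0.98), *Sema5a* (0.97) and *Dnm3* (0.96). *Dlk1* had *Mitf* (0.95), *Stk39* (0.91) and *Qpctl* (0.89), and *Peg3* had *Lemd1* (0.94), *Adssl1* (0.94) and *Unc5a* (0.92). *Plagl1* had *Lrp10* (0.93), *Nckap1* (0.87) and *Tssk4* (0.86), and *Mest* had *Astn2* (0.92), *Apeh* (0.89) and *Ina* (0.88). *Grb10* had *Tbcel* (0.91), *Sorcs2* (0.89) and *Epb41l2* (0.89), and *Cdkn1c* had *Agtr1a* (0.91), *Dsc2* (0.88) and *Scg3* (0.88). *Meg3* had *Car7* (0.91), *Foxj2* (0.90) and *Rab40b* (0.85), and *Ndn* had *Kcna6* (0.89), *Hook1* (0.86) and *Ift52* (0.85). The pair of *Peg3* and *Lemd1* had r = 0.97 within *M-Smo* tumors and −0.50 within *G-Smo* tumors, where *Peg3* hardly varied.

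Markers of other cell types moved with the genotypes in these bulk tumors. Over all probe sets 1.29% were called as lower, and 18.9% had an unadjusted p under 0.05 in either direction. Of 15 fibroblast and meninges markers 8 were lower in *G-Smo* tumors, with *Slc6a13*, *Slc22a6*, *Dcn*, *Lum*, *Col1a2* and *Col1a1* at the smallest adjusted p, and the mean of the list was 6.93 to 7.36 across *G-Smo* tumors, against 7.44 to 7.85 across *M-Smo* tumors. Of 5 astrocyte markers 3 (*Gfap*, *Aqp4* and *Aldh1l1*) were lower (mean 10.41 to 10.66 in *G-Smo*, 10.78 to 11.05 in *M-Smo*), and of 5 myelin markers 3 (*Mag*, *Mobp* and *Mbp*) were lower (6.29 to 7.52 in *G-Smo*, 7.69 to 9.57 in *M-Smo*). The mature neuron list overlapped, at 8.99 to 9.87 across *G-Smo* tumors, against 9.58 to 9.92 across *M-Smo* tumors, with none of 8 past limma or the methods' test and 2 lower at an unadjusted p under 0.05 (largest differences −0.56 for *Gad1*, −0.35 for *Snap25* and −0.32 for *Gabra6*). Of 8 endothelial markers all had negative differences, 4 at an unadjusted p under 0.05, and *Cdh5* passed in both tests (mean 8.22 to 8.40 in *G-Smo*, 8.36 to 8.61 in *M-Smo*). Of 6 microglia and macrophage markers only *Mrc1*, a gene of macrophages at brain borders, passed (−0.71, also in the methods' test), and the means overlapped (7.95 to 8.32 in *G-Smo*, 8.01 to 8.31 in *M-Smo*). None of 8 pericyte and smooth muscle markers passed in either test, with 2 lower at an unadjusted p under 0.05. The choroid plexus list also overlapped (6.95 to 8.26 across *G-Smo* and 7.07 to 8.91 across *M-Smo* tumors), with none of 6 past either test and 4 lower at an unadjusted p under 0.05 (−3.89 for *Ttr*, −0.80 for *Folr1* and −0.72 for *Kl*). By the methods' test 6 of the fibroblast, 3 of the astrocyte and none of the myelin markers passed. RMA values have no zero, so no marker could be said to be absent. The difference of *Grb10* had the opposite sign to those of the fibroblast, astrocyte and myelin lists, and those of *Ndn*, *Mest*, *Dlk1* and *Rian* had the same sign as these lists. The mean of the granule lineage list differed by 0.07, with the sign of *Grb10*, while 4 of its 10 genes had the opposite sign. As deviations within genotype, *Rian* had r = 0.80 with the neuron list, 0.83 with the myelin list and −0.88 with the granule lineage list (0.76, 0.32 and −0.58 without *M-Smo* replicate 1 and *G-Smo* replicate 3). The *Meg3* probe set, whose transcript is not settled, had r = −0.74 with the endothelial list (−0.72 without both tumors). *Dlk1* had r = 0.67 with choroid plexus and 0.59 with fibroblast markers (0.72 and 0.51 without both tumors). *Ndn* had 0.49 with neurons, *Cdkn1c* 0.64 with astrocytes, and *Grb10* 0.44 with fibroblasts (0.48, 0.64 and 0.44 without both). *Peg3* had 0.66 with the myelin list and −0.58 with astrocytes (0.24 and −0.70 without both). The r printed here were picked from those of every member with every list, so their size follows in part from the choice. None was tested. With the sex-linked list r was −0.73 for *Grb10*, −0.56 for *Cdkn1c* and 0.53 for *Meg3*. That list averages *Xist* with 3 Y-linked genes and is not the sex score. Its mean was 6.00 to 6.70 in tumors with high *Xist* and 8.90 to 8.98 in the others, so a negative r means higher values with high *Xist*. The part of these cell types and of sex in the members' differences was not tested beyond the fit with the sex score, and in bulk tissue fewer cells of a type cannot be told apart from less RNA per cell.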

How the data were processed

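The table that the authors deposited gives a log2 intensity for each probe set, made, per the labels and methods, with RMA in the Partek software. The genome build of the array annotation is not given in the sources used here. The 12 untreated arrays had 41345 probe sets. Of these 23521 had 1 gene symbol, 1820 several and 16004 none, and 23328 of the first matched a RefSeq gene. The 2 genotypes were compared in the values as deposited with limma 3.58.1 (R 4.3.3), lmFit and eBayes, without covariates, and p-values were adjusted by Benjamini-Hochberg over all probe sets (threshold 0.05). Single genes were also tested by an exact permutation of 6 against 6 tumors (924 assignments), and pairs of members by all 518400 arrangements within genotype. "The methods' test" is a 1-way ANOVA per probe set, adjusted likewise. It shares the name of the study's test and called 1105 probe sets here. The study reported far fewer from its own run, at a threshold its methods do not give, and the reason was not tested. Genes beside the members come from RefSeq gene order (GRCm38.p6). Named genes were the members, those past the threshold in each list (up to 6) or else up to 3 of the largest differences, *Igf2*, *Magel2*, *Mirg*, and the 3 genes most like each member; *AF357425*, *Dio3* and *Ddc* were added after their values were seen. The members and lists were chosen with earlier results of these data known. Each array is 1 tumor, and the labels name no litter or mouse; arrays have no count depth, and 6 per group limit the precision. The limma script was tested on simulated data. Alternatives were other normalization, filters, tests, array weights, a replicate block, a sex score and leaving out each tumor.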

Additional observations from a re-analysis of the deposited data

Results flagged for a closer look

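A tumor far from the other 5 of its genotype was looked for in 23 genes and list means, 46 groups of 6 in all, where chance gives about 1 in 20. It was found in 6, and 5 of these were the highest value of *M-Smo* replicate 1. That tumor had 9.31 for *Rian* (the next *M-Smo* tumor had 8.67), 9.88 for *Zdbf2*, 10.40 for *AF357425*, 6.25 for the mean of the 43 microRNA genes and 7.42 for the mean of the 6 snoRNA genes of the *Dlk1*–*Dio3* domain. The sixth was *G-Smo* replicate 3, lowest of its genotype at 6.03 for the snoRNA mean. These genes and means share a domain, apart from *Zdbf2*, so they are not independent. Over all probe sets the mean correlation of *M-Smo* replicate 1 with the other arrays was 0.9844. Only *M-Smo* replicate 3 was lower (0.9837), and the rest ran from 0.9861 to 0.9885.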

How the results depend on the processing

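All probe sets called numbered 1057, and 1881 once probe sets under percentile 40 of the means were dropped, 420 with the sex score and 367 to 942 with a tumor left out; median centring, quantile normalization, 1-gene probe sets, trend and robust eBayes, the methods' test and array weights gave 1011 to 1480. The 2 members called became 1 with the sex score (*Ndn* lost) and 1 with any tumor left out (1 to 1), and the 3 other imprinted genes became 0 with the sex score and 1 to 4 with a tumor left out. The 5 genes beside members became 8 over 1-gene probe sets, 3 with the sex score and 2 to 4 with a tumor left out. The replicate numbers did not pair the tumors (same-number correlations of deviations from −0.14 to 0.11). With the replicate block 113 probe sets, 0 members, 0 other imprinted genes and 0 genes beside members were called (*Grb10* adjusted p = 0.0699, *Ndn* 0.125). The sign of *Cdkn1c* turned with the sex score (−0.0413), and that of *Plagl1* when both its probe sets were averaged (−0.0086), neither called. The median of the maternally expressed members was 0.08 with the filter, which drops *Meg3*. Regulators and relatives stayed at 0 calls under each of these, and pairs of members at 0 in the 4 settings run for them (values not centred by genotype, quantile normalization, the sex score removed, a tumor left out). The cause of these changes was not tested, except that fewer probe sets were tested under the filters. Alternatives for lists beyond the members, other than normalization, the filter, the sex score and the block, were chosen after seeing the data. The deposited values hold no background measure, so how far a dim probe set lies above background is not known here.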
